A study of Mus musculus with 4 samples.

Results

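The genes described here are those that encode the proteins of the cytosolic ribosome, measured in the newborn mouse lung. They were taken from the deposited table as protein-coding rows with a ribosomal protein symbol (Rpl or Rps and a number, with at most a short suffix, or Rplp0, Rplp1, Rplp2 and Rpsa) and a mean value of at least 100 over the libraries. Of 48709 rows in the table, 88 symbols fitted this pattern and 84 of them were protein-coding. The mean was at least 100 for 81 genes, 32 of the small and 49 of the large subunit, and all 81 were among the 18436 genes tested.

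RNA came from the left lung lobe of untreated C57BL/6 mice at postnatal day 1, from 2 RykSL/SL mice, called mutant here, and 2 wild-type mice. Each library was made from a separate mouse by poly(A) mRNA sequencing. Ryk encodes a transmembrane receptor for WNT ligands, and the sources used here do not say what the SL allele changes in the gene. Ryk itself had 2757 and 2203 normalized counts in mutant lungs 1 and 2 and 2528 and 2525 in wild-type lungs 1 and 2, so its mRNA level does not check the genotype labels. All values below are normalized counts, given for lung 1 and then lung 2 of a genotype, and fold changes are mutant over wild type as log2(value + 1).

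The cytosolic ribosome joins a small subunit, which reads the mRNA, to a large subunit, which forms the peptide bond and lets the new chain leave through an exit tunnel. Most of its proteins are needed in equal numbers, and their mRNAs are among the most abundant in growing cells. Most of these mRNAs are known to begin with a C followed by a run of pyrimidines, the terminal oligopyrimidine or TOP motif, through which the TOR kinase controls their translation together. In the newborn lung the genes are expressed in every cell type, so a bulk library cannot separate fewer cells of a type from less RNA per cell.

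The 81 genes together held 4.54% and 5.56% of the summed values in mutant lungs and 5.23% and 5.14% in wild-type lungs. Mutant lung 1 had the lowest share and mutant lung 2 the highest, with the wild-type lungs between them. Per kilobase of transcript, the scale on which genes can be compared, the mean level ran from 493 for Rpl7l1 to 44918 for Rps27, with a median of 12670. Rps27, Rps4x (29745 per kilobase), Rps14 (28184), Rps12 (28070) and Rpl41 (27762) stood highest on that scale, and Rpl13a (561), Rpl24 (1270), Rpl18 (2413) and Rps15a (2559) followed Rpl7l1 at the low end. The length is that of a single coding transcript per gene, the principal one by annotation where given and the longest where several tied. A gene whose RNA is mostly a shorter form is set too low.

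By normalized counts alone, without regard to length, 5 genes had the highest means. Rpl7, a large subunit protein, had 26653 and 31775 in mutant lungs and 31084 and 29617 in wild-type lungs. Rps24, a small subunit protein, had 18928 and 32016 in mutant lungs and 23968 and 21558 in wild-type lungs. The mutant lungs thus bracketed the wild-type lungs for both genes. Rps3a1, also of the small subunit, had 21266 and 22794 in mutant lungs and 24452 and 23410 in wild-type lungs, and the mutant values lay below both wild-type values. Rps4x and Rpl10, the other two, are X-linked and are given with the X-linked genes below.

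No ribosomal protein gene passed the test between genotypes. With limma and a Benjamini-Hochberg adjusted p under 0.05, 0 of 81 were higher and 0 of 81 were lower in mutant lungs, beside 1.47% higher and 0.917% lower (2.39% in either direction, 440 genes) over all genes tested. At an unadjusted p under 0.05 the count was also 0 of 81, beside 20.1% of all genes tested. The smallest adjusted p of any member was 0.490, that of Rpl29. Log2 fold changes ran from −0.28 to 0.23 with a median of 0.03, beside a median of −0.02 over all genes tested. Of the members, 48 had a fold change above 0 and 33 below 0. The sign of the members' median depended on the scaling between libraries: it was −0.09 after quantile normalization and −0.05 with equal library sums, where the median of all genes also moved, to −0.03 and −0.09. The SD of the fold changes was 0.104 over the members and 0.585 over all genes tested, and the standard error of a single member had a median of 0.19 (0.14 to 0.35).

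**Figure D1:**
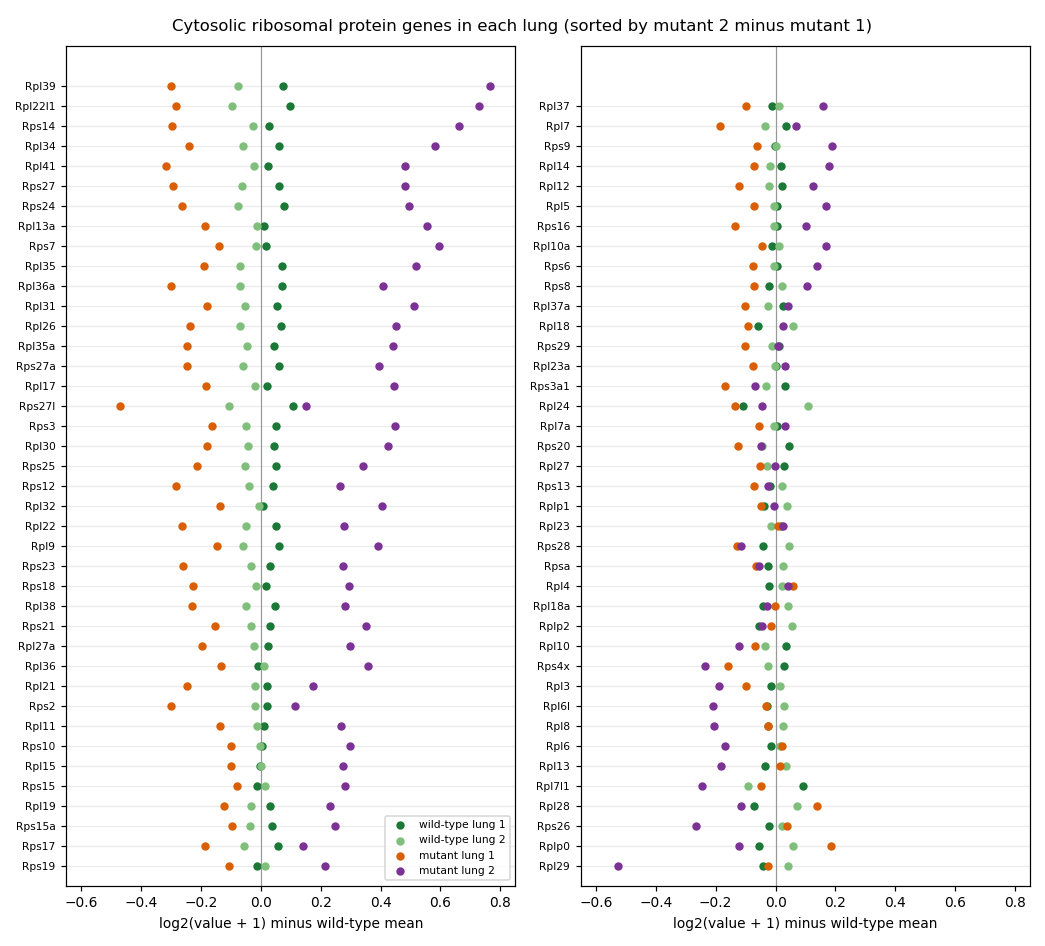
Each row is 1 of 79 ribosomal protein genes and each point 1 lung, as log2(value + 1) minus the mean of the wild-type lungs, with genes sorted by the difference between the mutant lungs. For all 40 genes of the left panel mutant lung 1 (orange) lies left of both wild-type lungs (greens) and mutant lung 2 (purple) right of them, while in the lower part of the right panel the order is mixed or turned around.

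The 5 genes with the highest fold changes all had the wild-type lungs between the mutant lungs. Rpl39 (chrX:37082520-37085402, minus strand, GRCm38), the small protein that lines the exit tunnel, had 8727 and 18261 in mutant lungs and 11321 and 10193 in wild-type lungs, and its log2 fold change of 0.23 (SE 0.35, limma adjusted p = 0.7503) joined a mutant lung below the wild type to a mutant lung far above it. Rps7 (chr12:28630847-28635953, minus strand), a small subunit protein, had 16792 and 27934 in mutant lungs and 18690 and 18285 in wild-type lungs (log2 fold change 0.23). Rpl22l1, a paralog of the large subunit protein Rpl22, had 1406 and 2837 against 1831 and 1601 (0.22). For all 3 the highest lung was mutant 2 and the lowest was mutant 1. Rpl13a had 475 and 795 against 545 and 536 (0.18), and Rps14 had 16392 and 31847 against 20511 and 19748 (0.18), again with the wild-type lungs between the mutant lungs.

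At the other end, Rpl29 (chr9:106429454-106431568, plus strand) of the large subunit had 4935 and 3486 in mutant lungs and 4878 and 5165 in wild-type lungs, a log2 fold change of −0.28 (SE 0.20, limma adjusted p = 0.490). Only mutant lung 2 stood apart for Rpl29, and mutant lung 1 lay between the wild-type lungs. Rps4x followed with −0.20. Rps27l, a paralog of Rps27, had 1126 and 1733 against 1680 and 1448 (−0.16), and here mutant lung 1 was the low library. Rpl7l1, a paralog of Rpl7, had 1303 and 1135 against 1434 and 1264 (−0.15), and the genotypes overlapped.

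What most members shared was an order of the 4 lungs in which the wild-type lungs lay between the mutant lungs. For 54 of 81 genes (66.7%) mutant lung 1 was below both wild-type lungs and mutant lung 2 above both, an order that 10.3% of all genes tested had. The reverse order, with mutant lung 1 above and mutant lung 2 below, was seen for 4 members, Rpl28, Rpl6, Rplp0 and Rps26, and for 10.9% of all genes tested. Mutant lung 1 was the lowest of the 4 lungs for 65 members (80.2%), beside 25.5% of all genes tested. Mutant lung 2 was the highest for 55 (67.9%), beside 33% of all genes tested. The order held for 23 of the 32 small subunit genes and 31 of the 49 large subunit genes. Under other scalings the count was 38 after quantile normalization (10.6% of all genes tested), 47 with equal library sums (9.88%), 49 with equal upper quartiles (12.2%) and 48 with equal sums of the remaining genes (11.3%). This order was noticed in the data and then counted, and it separates single lungs, not genotypes.

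Both mutant lungs were below both wild-type lungs for 10 members, among them Rpl10, Rpl3, Rps28, Rps3a1, Rps4x and Rpsa, which is 12.3% beside 26.9% of all genes tested. Rpl4, a large subunit protein at the exit tunnel, was the only member with both mutant lungs above both wild-type lungs, at 22751 and 22485 against 21513 and 22181, beside 25.7% of all genes tested. Rpl3, which lies near the peptide bond centre, had 16778 and 15768 against 17775 and 18155. The separation of the genotypes was small for these genes and none of them passed the test. The remaining 12 members had other orders.

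Relative to the wild-type mean, the members' median log2 difference was −0.13 in mutant lung 1 (range −0.47 to 0.19) and 0.17 in mutant lung 2 (range −0.53 to 0.77). The corresponding medians over all genes tested were −0.003 and −0.02. The mutant lungs differed from each other by a median of 0.32 over the members (range −0.50 to 1.07). At least 0.3 higher in mutant lung 2 were 41 members (50.6%), beside 25.2% of all genes tested. The wild-type lungs differed from each other by a median of 0.03 (range −0.22 to 0.21). In summed values the members came to 886162 and 1112168 in mutant lungs and 979771 and 958398 in wild-type lungs, so the sum was 1.26 times as high in mutant lung 2 as in mutant lung 1. The ratio of small to large subunit sums was 0.780 and 0.844 in mutant lungs and 0.820 and 0.808 in wild-type lungs, with the same order of the libraries.

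Other properties of the libraries also differed between the mutant lungs. The factors by which the counts appear to have been scaled, estimated from the rounding of the values, were 0.855 and 1.172 for the mutant lungs and 0.987 and 0.994 for the wild-type lungs, so mutant lung 1 had the most reads and mutant lung 2 the fewest. Xist stood at 24836 in mutant lung 1 but at 9, 7 and 23 in mutant lung 2 and wild-type lungs 1 and 2, and Ddx3y, a Y-linked gene, at 56 against 3769, 2328 and 2197. The sex pattern of mutant lung 1 is thus unlike that of the other three, and sex and the single lung cannot be told apart. The mitochondrially encoded genes held 3.70% and 4.64% of the summed values in mutant lungs and 3.83% and 3.87% in wild-type lungs. As a share they were again lowest in mutant lung 1 and highest in mutant lung 2. In values, however, the 13 that encode proteins summed to 707736 and 896855 against 702159 and 705500, so mutant lung 1 was not the lowest. Their median differences from wild type were 0.14 and 0.15, and 2 of the 13 had the order of most members. Replication-dependent histone genes, whose mRNAs lack poly(A) tails, summed to 4028 and 2048 against 2125 and 2043. The part of each of these in the order of the lungs was not tested.

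Markers of other lung cells and of other tissues were read as sums and as list medians, which often differed because a few abundant genes carry a sum. Markers of lung epithelium summed to 329964 and 296498 in mutant lungs and 394790 and 371048 in wild-type lungs, so the labelled tissue was present in each library. Their median difference from wild type was 0.04 in mutant lung 1 and −0.33 in mutant lung 2, and 0 of 15 were called (2 lower at an unadjusted p under 0.05). Markers of mesenchyme and endothelium summed to 160461 and 127616 against 118385 and 122995, but their medians were 0.38 and −0.54, and 1 of 12 (Pdgfra) was higher, beside 1.47% of all genes tested. At an unadjusted p under 0.05, 2 of the 12 were higher and 5 lower, beside 10.4% and 9.64% of all genes tested. Proliferation genes summed to 5700 and 4754 against 5548 and 4727, with medians of 0.52 and −0.31, and 1 of 14 (Mcm5) was lower, beside 0.917% of all genes tested (0 higher and 3 lower at an unadjusted p under 0.05). In both of these lists the median lay above the wild type in mutant lung 1 and below it in mutant lung 2, the opposite of the ribosomal protein genes. Erythroid genes summed to 681545 and 814397 against 734782 and 854784, with medians of −0.33 and −0.42, and 0 of 11 were called (3 lower at an unadjusted p under 0.05). Macrophage and neutrophil genes summed to 7661 and 10930 against 9712 and 9052, with medians of −0.42 and −0.43. Of these 11 genes, 1 was lower (Siglecf), 0 were higher and 6 lower at an unadjusted p under 0.05, and 2 had the order common among the ribosomal protein genes. Lymphocyte genes (495 and 341 against 1063 and 1041, 3 of 8 lower, Ms4a1, Ighm and Igkc) and heart muscle genes (4498 and 3991 against 7868 and 7947, 2 of 9 lower, Myl7 and Myl4) were low in both mutant lungs, beside 0.917% lower of all genes tested. The part of these cell types in the ribosomal protein values was not tested.

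Leaving out a mutant lung changed which members passed. Without mutant lung 1, 5 of 81 members were higher, beside 6.5% of all genes tested, and 1 was lower, beside 6.43%, in a fit that called 12.9% of all genes in either direction. The 5 were Rps14 (log2 fold change 0.66, limma adjusted p = 0.0425), Rps7 (0.60, adjusted p = 0.0437), Rpl39 (0.77, adjusted p = 0.0471), Rpl13a (0.56, adjusted p = 0.0486) and Rpl41 (0.48, adjusted p = 0.0495), and the lower gene was Rpl29 (−0.53, adjusted p = 0.0492). Without mutant lung 2, 0 members and 0 genes (0% in each direction) were called, while 11 members (13.6%) had an unadjusted p under 0.05, beside 28.5% of all genes tested. In these fits the lone mutant lung is assumed to vary as the wild-type lungs do, so they describe that lung and not the genotype.

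**Figure D2:**
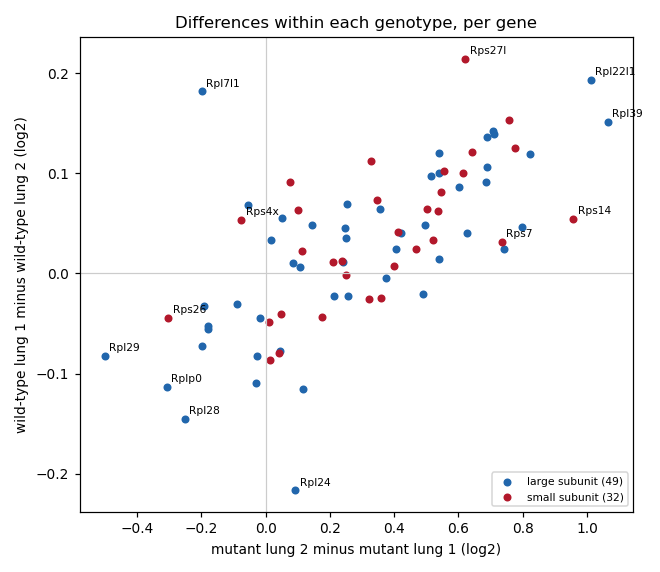
For each of the 81 genes the log2 difference between the mutant lungs (lung 2 minus lung 1, horizontal) is plotted against that between the wild-type lungs (lung 1 minus lung 2, vertical), coloured by subunit. The cloud rises to the right, with Rpl39 and Rpl22l1 high and Rpl29, Rplp0 and Rpl28 low on both axes, but Rps14 and Rps7 lie far right near the middle of the vertical axis and Rpl24 lies lowest on it.

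Differences between the mutant lungs and between the wild-type lungs were related across the members. Over the 81 genes the difference of mutant lung 2 minus mutant lung 1 and that of wild-type lung 1 minus wild-type lung 2 had Pearson r = 0.675 and Spearman rho = 0.696, beside r = 0.058 and rho = 0.076 over all genes tested. The sign rests on which wild-type lung is subtracted, since lungs of a genotype have no order. This is a description across genes that share 4 libraries and carries no test. Several members did not follow it: Rps14, Rpl41, Rpl13a and Rps7 differed between the mutant lungs by 0.96, 0.80, 0.74 and 0.73 but between the wild-type lungs by 0.05, 0.05, 0.02 and 0.03. Over the 39 members with at most 50% of their sequence shared with other genes, r was 0.634. The difference between the mutant lungs was weakly related to transcript length (rho = −0.22) and GC content (rho = −0.11) among the members. Protein-coding genes outside the set were classed by another length, that of all annotated exons of a gene merged. Those of up to 1 kb had median differences from wild type of −0.23 in mutant lung 1 and −0.10 in mutant lung 2. Those over 8 kb had 0.14 and 0.10, so the medians of the short class lay below 0 in both mutant lungs. Between the mutant lungs the short class had a median difference of 0.10, on the side of the members. The longer classes had medians from −0.08 to −0.02, and most members are over 1 kb by this merged length and so belong to these classes.

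Members grouped by their place in the ribosome differed in how far the mutant lungs lay apart. Around the exit tunnel, 9 of 10 genes had mutant lung 1 below and mutant lung 2 above the wild-type lungs, with a median difference between the mutant lungs of 0.58. Over all 81 members 54 had this order, and the median difference was 0.32. Rpl31 had 12569 and 20262 against 14759 and 13708, Rpl26 had 12913 and 20800 against 15940 and 14501, and Rpl17 had 13844 and 21374 against 15935 and 15492. Rpl4 was the exception. All 4 genes at the mRNA entry and decoding sites had the same order. Rps3, which also serves in DNA repair and ribosome quality control, had 13853 and 21182 against 16066 and 14984, and Rps23, which contacts the decoding centre, had 11763 and 17057 against 14407 and 13797. Rps2 had 8104 and 10793 against 10110 and 9822, and Rps15 had 11243 and 14424 against 11772 and 11978. The genotype means of these 4 genes differed by at most 0.14 on the log2 scale.

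The P stalk, through which the large subunit engages translation factors, did not show that order in any of its 3 genes. Rplp0, its base, had 23493 and 18971 in mutant lungs and 19854 and 21478 in wild-type lungs, the reverse of the common order. Rplp1 had 12301 and 12677 against 12391 and 13073, and Rplp2 had 6773 and 6633 against 6589 and 7107, and in both the genotypes overlapped. The difference between roles was not tested. Rpl5 and Rpl11, which with 5S rRNA bind MDM2 when ribosome assembly is disturbed, had 20732 and 24472 against 21854 and 21686 and 9787 and 12969 against 10859 and 10675. Both had the wild-type lungs between the mutant lungs.

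Rps6, the substrate of the S6 kinases, had 18343 and 21231 in mutant lungs and 19382 and 19229 in wild-type lungs, in the common order. Rpsa, also known as the laminin receptor precursor, had 16835 and 16937 against 17317 and 17915, both mutant lungs a little below the wild type. Of 17 genes mutated in Diamond-Blackfan anaemia, an inherited failure of red cell production, 12 had the common order, beside 54 of all 81 members. Rps19, the gene most often affected, had 15281 and 19113 against 16316 and 16604. Rps26 had 6095 and 4939 against 5844 and 6027 and Rps28 had 4644 and 4691 against 4927 and 5233, and neither had that order. None of the 17 passed the test and 0 had an unadjusted p under 0.05.

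The set holds 4 X-linked members. Rpl39 is given above. Rpl36a had 5832 and 9521 in mutant lungs and 7543 and 6837 in wild-type lungs, with mutant lung 1 the lowest. Rps4x had 27724 and 26304 against 31561 and 30416, and Rpl10, which joins the large subunit late in its assembly, had 22179 and 21347 against 23812 and 22707. For Rps4x and Rpl10 both mutant lungs were below both wild-type lungs, with log2 fold changes of −0.20 (SE 0.19) and −0.10 (SE 0.18). Mutant lung 1, the lung with the high Xist value, was below both wild-type lungs for all 4 genes. The same held, of all 81 members, for the 54 in the common order and the 10 with both mutant lungs below both wild-type lungs. Over all genes tested, 10.3% and 26.9% had these orders. Some members with other orders shared it too, among them Rpl18 (6846 in mutant lung 1 against 7005 and 7586 in wild-type lungs). The part of sex in this was not tested.

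Several ribosomal proteins have a paralog that can take their place in the ribosome, and the balance within pairs was read per kilobase in each lung. Rpl22l1 stood at 103% and 143% of Rpl22 in mutant lungs and at 108% and 102% in wild-type lungs, so only mutant lung 2 stood apart. Rpl22 itself had 5055 and 7351 against 6279 and 5857. Rps27l stood at 6.49% and 5.83% of Rps27 against 7.56% and 7.11%, below the wild type in both mutant lungs. Rpl7l1 stood at 2.18% and 1.59% of Rpl7 against 2.06% and 1.91%, and Rpl6l at 60.1% and 60.6% of Rpl6 against 61.8% and 62.8%. Rpl36al, which lies outside the symbol pattern, had 1922 and 1685 against 2464 and 2172 (log2 fold change −0.36, SE 0.15, limma adjusted p = 0.251) and stood at 12.5% and 6.70% of Rpl36a against 12.36% and 12.03%. Rps4l, which the table lists as a transcribed pseudogene, had 694 and 279 against 727 and 686, and mutant lung 2 alone was low. These ratios were not tested, and the transcript chosen for each gene sets their size. Sequence shared with other genes limits them as well. For Rpl6l, 76.4% of its 50-base transcript sequences occurred in transcripts of other genes. The pseudogene Gm6136 held 55.7% of those of Rpl6l and 52.6% of those of Rpl6. The ratio of Rpl6l to Rpl6 therefore cannot be read as a balance of separate RNAs.

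**Figure D3:**
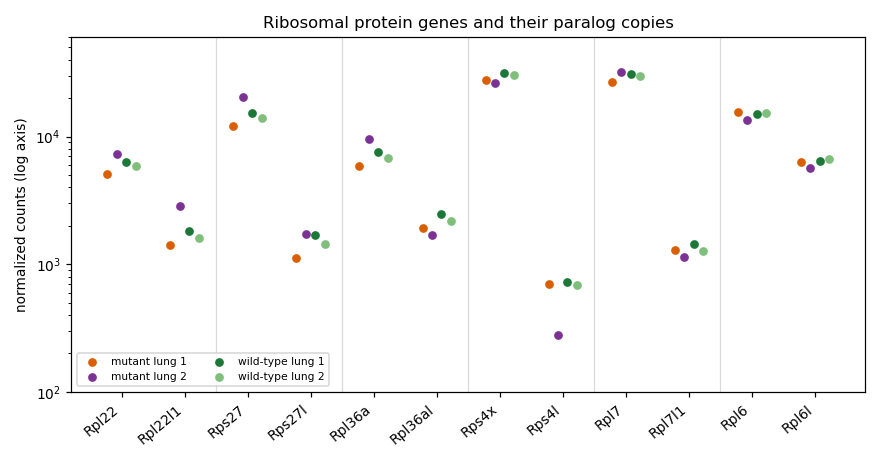
Normalized counts (log axis) of 6 ribosomal protein genes and the paralog or pseudogene that resembles each, with 1 point per lung. Rpl22, Rpl22l1, Rps27 and Rpl36a are highest in mutant lung 2 (purple), whereas Rpl36al and Rps4l are lowest there.

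Symbols that fitted the pattern but were left out had low values or were not protein-coding. Rpl3l, a paralog found in muscle, had 3 and 5 against 3 and 1, Rpl39l had a mean of 2.75 and Rpl10l, known from the testis, a mean of 0.25. The nearest member above the minimum was Rpl13a with a mean of 588. Of the 4 rows that are not protein-coding, Rps12l1 was at 0 in every lung, Rps4l is given above, and Rps3a2 (12127 and 13183 against 14264 and 13537) and Rps3a3 (5236 and 5725 against 6107 and 5824) repeated the order of Rps3a1. Ribosomal proteins with another symbol were described beside the set. Rack1, the scaffold on the small subunit head, had 17939 and 22416 against 17996 and 18080, and Fau, which encodes a ubiquitin-like protein fused to a small subunit protein, had 7595 and 9916 against 8002 and 8413. Both had mutant lung 2 as the highest lung.

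The start sites were examined because the TOP motif is the element through which these mRNAs are known to be controlled together. A RefSeq start window (GRCm38.p6) was found for 60 of the 81 members. A C at the annotated start followed by at least 4 pyrimidines was present in 13 of the 60 (21.7%), beside 3.01% of all 27025 symbols with a RefSeq start window. The following lines give 10 bases before and 20 bases from the start for the 3 tract members with the largest and the 3 with the smallest difference between the mutant lungs, 5′ to 3′ on the gene's strand, with the pyrimidine tract in capitals.

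Rps27: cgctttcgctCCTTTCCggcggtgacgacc
Rpl35: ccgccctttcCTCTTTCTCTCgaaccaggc
Rpl35a: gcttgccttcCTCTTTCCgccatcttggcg
Rps6: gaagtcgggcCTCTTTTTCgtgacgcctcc
Rplp2: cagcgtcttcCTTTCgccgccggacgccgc
Rpl28: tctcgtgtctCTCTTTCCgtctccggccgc

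These windows lie at chr3:90213629-90213658 on the minus strand (Rps27), chr2:39005112-39005141 minus (Rpl35), chr16:33056472-33056501 plus (Rpl35a), chr4:86857348-86857377 minus (Rps6), chr7:141447641-141447670 plus (Rplp2) and chr7:4792955-4792984 plus (Rpl28). Each crosses the RefSeq start used, which for some genes, such as Rplp2 and Rpl35, lies inside the deposited gene limits. The difference of mutant lung 2 minus mutant lung 1 was 0.78, 0.71 and 0.69 for the first 3 and 0.21, −0.03 and −0.25 for the last 3. An uninterrupted tract thus stood at the RefSeq start of genes at both ends. Over the 13 genes with a tract the median difference was 0.40 (range −0.25 to 0.78) and 11 had the common order of the lungs. Over the other 47 matched members it was 0.26 (range −0.31 to 1.07) and 31 had it. Many annotated starts lie a few bases from the start used in cells. A run of at least 8 pyrimidines (C or T) within 20 bases on either side was found in 50% of matched members and 18.4% of all symbols. In the 300-base window, on both strands, CCGGAAG, the core recognised by ETS factors, was present in 41.7% of members and 9.93% of all symbols, CCAAT in 31.7% and 41.1%, and TATAA in 28.3% and 28%. These matches describe letters in the window only.

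Most members share sequence with processed pseudogenes, and the deposited values bear on this directly. The share of a member's 50-base transcript sequences found in transcripts of other genes had a median of 51.7%, up to 98.6% for Rps27, and was over 50% for 42 members. Pseudogene rows with a mean of at least 1000 that hold at least 25% of a member's 50-base sequences were found for 54 members, in 131 pairs. Rps6-ps4 had 13604 and 15660 in mutant lungs and 14326 and 14202 in wild-type lungs, which was 74.2%, 73.8%, 73.9% and 73.9% of Rps6 in the same lungs. The fraction of the member varied between lungs by a median of 1.045 times over the 131 pairs and by at most 1.1 times in 119 of them. Rps2-ps10 varied most, by 1.53 times, with 809 and 1651 against 1525 and 1401. The values of a member and of its copies therefore moved together over the lungs, and reads of a member and its copies cannot be told apart from these files.

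**Figure D4:**
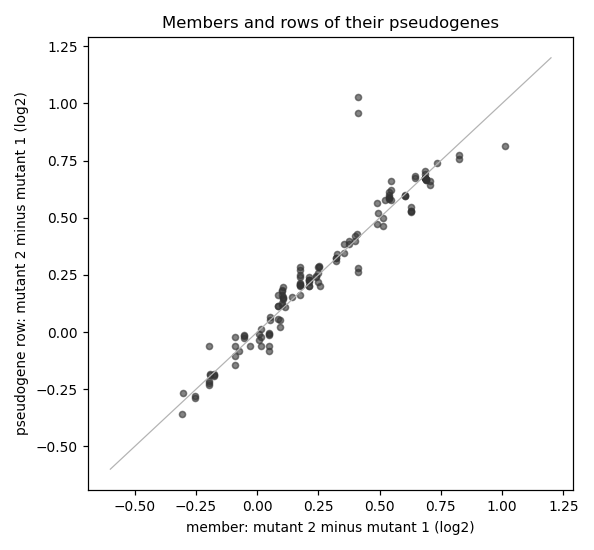
Each point is a pseudogene row and the ribosomal protein gene it resembles, with the log2 difference of mutant lung 2 minus mutant lung 1 of the gene (horizontal) and of the pseudogene row (vertical). Most of the 131 points lie near the line of equal differences, and the 2 points above 0.9 on the vertical axis are copies of Rps2.

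The common order was seen in members with little and with much shared sequence. Of the 39 members with at most 50% shared, 25 (64.1%) had the common order, with a median difference between the mutant lungs of 0.26, and of the 42 with over 50% shared, 29 (69.0%) had it, with a median of 0.34. With the 273 rows named as pseudogenes of members added, the share of summed values was 6.71% and 8.25% in mutant lungs and 7.73% and 7.57% in wild-type lungs, with mutant lung 1 again lowest and mutant lung 2 highest. Another gene at the same place shared at least 10% of the sequence of 12 members. The largest such shares were Rpl24 with Gm28037 (69.4%) and Rpl35 with Wdr38 (59.0%), followed by Rpl13a with Flt3l (57.4%). Gm28037 and Flt3l were at 0 in every lung, and Rpl24 (805 and 858 against 821 and 954) and Rpl13a were among the lowest members.

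Genes that work with the ribosome were described from lists. Over all genes tested, 10.4% were higher and 9.64% lower at an unadjusted p under 0.05, and the counts at that level below are to be read beside these shares. None of the 76 mitochondrial ribosomal protein genes tested passed in either direction (0 higher and 14 lower at an unadjusted p under 0.05), and their median difference from wild type was −0.26 in mutant lung 1 and −0.22 in mutant lung 2. The 74 nuclear genes of oxidative phosphorylation, a second like group, had medians of −0.29 and −0.20, with 0 called and 11 lower at an unadjusted p under 0.05. Both medians were thus on the same side of the wild type for these groups, unlike the cytosolic set. The order common among the cytosolic genes was seen for 11 of 76 and 13 of 74, beside 10.3% of all genes tested. The difference between the groups was not tested.

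Of 25 other genes with known TOP mRNAs, 0 were called (1 higher at an unadjusted p under 0.05), with medians of −0.003 and 0.02 in mutant lungs 1 and 2, and 7 had the common order, beside 10.3% of all genes tested. Nap1l1, a histone chaperone, had the smallest p in this list, at 10247 and 8885 against 6990 and 7302 (log2 fold change 0.42, limma adjusted p = 0.225), with both mutant lungs higher. Eef1g, an elongation factor subunit, had 5600 and 5776 against 7358 and 6956 (−0.33, adjusted p = 0.269). Neither gene had the common order. Of 12 tested snoRNA host genes, many of which also carry TOP motifs, 0 were called (1 lower at an unadjusted p under 0.05), with medians of −0.17 and 0.46 in mutant lungs 1 and 2, and 3 had the common order. Gas5, a host gene with a TOP motif, had 3093 and 5189 against 3843 and 3650, in the common order, and was chosen for naming after its values were seen. Snhg1 had 1082 and 2429 against 1063 and 1009, high in mutant lung 2 alone.

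**Figure D5:**
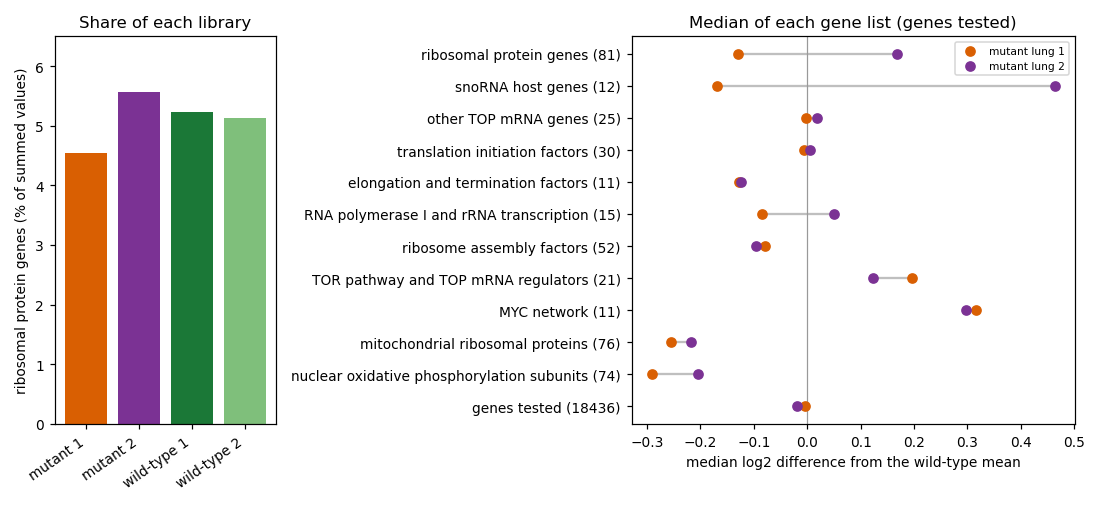
Left, the percent of each lung's summed values held by the 81 ribosomal protein genes. Right, the median log2 difference of each mutant lung from the wild-type mean over the genes of each list, with the number of genes tested. The ribosomal protein genes and the snoRNA host genes have mutant lung 1 below 0 and mutant lung 2 above it, by 0.1 or more on each side, although 3 of the 12 snoRNA host genes had that order singly beside 54 of the 81, and the mitochondrial ribosomal protein list has both below 0.

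None of the 30 initiation factor genes was called (3 higher at an unadjusted p under 0.05). Eif4h, a helper of the mRNA helicase, had 10091 and 18787 against 7434 and 7893 (log2 fold change 0.85, limma adjusted p = 0.203), and Eif4g3, a scaffold of the cap complex, had 2982 and 3044 against 1969 and 2056 (0.58, adjusted p = 0.0899). Both mutant lungs were above both wild-type lungs for each. Of 11 elongation and termination genes, 0 were called (3 higher and 2 lower at an unadjusted p under 0.05), and Eef2k, the kinase of elongation factor eEF2, had 713 and 669 against 440 and 480 (0.59, adjusted p = 0.108). Of 52 ribosome assembly genes, 0 were called (4 higher and 2 lower at an unadjusted p under 0.05). Dkc1, the pseudouridine synthase of rRNA, had 338 and 325 against 611 and 541 (−0.79, adjusted p = 0.0629, and 0.0491 with equal upper quartiles), and Las1l, which helps to process a spacer of the rRNA precursor, had 1112 and 1349 against 753 and 760 (0.69, adjusted p = 0.0857). None of the 15 genes of RNA polymerase I transcription was called, and 0 had an unadjusted p under 0.05.

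Regulators of the set were described last. Of 21 tested genes of the TOR pathway and TOP mRNA regulators, 0 were called (5 higher at an unadjusted p under 0.05). Tsc1, a brake on TOR complex 1, had 938 and 1428 against 712 and 736 (log2 fold change 0.68, limma adjusted p = 0.174), and Larp1b, a relative of the TOP mRNA binding protein Larp1, had 377 and 406 against 271 and 259 (0.56, adjusted p = 0.136). MYC factors activate ribosomal protein genes, but the MYC network listed here also holds other factors. In it 1 of 11 genes rose and 1 fell, beside 1.47% and 0.917% of all genes tested. At an unadjusted p under 0.05, 5 were higher and 1 lower. Mycn, a MYC factor of the growing lung epithelium, fell from 103 and 120 in wild-type lungs to 29 and 26 in the mutant lungs (log2 fold change −1.98, SE 0.25, limma adjusted p = 0.0243). Mlxip, which pairs with Mlx, rose from 1190 and 1237 to 2109 and 2414 (0.89, SE 0.14, adjusted p = 0.0384). Myc had 107 and 219 against 107 and 114, higher in mutant lung 2 alone (0.47, adjusted p = 0.504), and was chosen for naming after its values were seen. The calls of Mycn and Mlxip were lost when any 1 of mutant lung 2, wild-type lung 1 and wild-type lung 2 was left out, with limma adjusted p from 0.0966 to 0.940, in fits that called 0 genes in the whole table. The log2 fold changes in those fits were −1.87 to −2.09 for Mycn and 0.80 to 0.92 for Mlxip. Without a filter on low values they had adjusted p = 0.222 and 0.240 in limma, and Mlxip had 0.0570 after quantile normalization and 0.106 without a trend.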

How the data were processed

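Total RNA of the left lung lobe was made into stranded poly(A) libraries, per the labels' protocols. The submitters' processing notes name FastQC, STAR 2.4.0a, featureCounts 1.5.1 (Subread) and DESeq2 1.14.1, and the builds mm10 and GRCm38. Their roles, the strandedness of counting and how multiply aligned reads were counted are not stated there. The values, treated as a score, are counts per gene that the authors deposited scaled between libraries, by a method not stated, and rounded to whole numbers. They summed to 19516482 and 19987634 in mutant libraries 1 and 2 and 18743098 and 18658239 in wild-type libraries 1 and 2. From the pattern of whole numbers that scaling and rounding leaves (skipped values where the factor is above 1, doubled ones where it is below), unscaled totals were estimated at about 22830000, 17050000, 19000000 and 18770000. Counts themselves were not recovered, so no count model was run.

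Genes were tested with limma 3.58.1 (R 4.3.3), two-sided, with a mean-variance trend. The input was log2(value + 1) of 18436 genes, those whose mean reached 10, and Benjamini-Hochberg adjustment covered all of them. The code was tested on simulated data. The log2(value + 1) scale understates changes of low genes. Sequence sharing was computed from GENCODE release M21 transcripts as 50-base sequences on either strand, with all 81 members matched by identifier. Coordinates are those of GRCm38, and start sequences are from RefSeq. Other steps used Python 3.11.15, pandas 2.3.3, numpy 2.4.6 and matplotlib 3.10.9.

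The members and lists were chosen with earlier results of these data known. Genes were named by rule: the 5 members with the highest means, the 5 with the largest and the 5 with the smallest fold change, X-linked members, members with set roles, symbols near the minimum, and up to 4 genes with the smallest p of each pathway list. Some genes that the rule selects are not reported here. Other genes named as examples of a group were chosen after their values were seen. Alternatives covered pseudocount, filter, scaling, trend, replicate block and leaving out each library.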

Additional observations from a re-analysis of the deposited data

How the results depend on the processing

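The count of ribosomal protein genes called was 0 in each direction under 13 of the 14 alternatives, the exception being the fit without mutant lung 1, so leaving out a library gave 0 to 5 higher and 0 to 1 lower. Their median log2 fold change ran from −0.13 to 0.17 when a library was left out, and from −0.09 to 0.03 over the scalings, so its sign depended on the setting. The ratio of the mutant to the wild-type mean of the members' share was 0.975, and 0.973 to 0.978 with other denominators or with pseudogene rows added. The order count under other scalings, added after seeing the data, is given with the results.

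Over the whole table, 271 genes were higher and 169 lower (61.6% higher), and 243 and 232 (51.2% higher) with equal sums of the genes outside the members and the 100 highest. No filter on low values gave 0 and 0 (4876 genes at an unadjusted p under 0.05), no trend 46 and 26, and leaving out a library 0 to 1199 higher and 0 to 1186 lower. The replicate block gave 437 and 329, with 0 members called in either direction. Same-numbered libraries did not deviate together over the genes tested (correlation −0.0579), though over the members the differences within the genotypes were related, as given above. The labels state no pairing, and these values cannot tell whether there was one. Of 922 values of 66 named genes under the alternatives, 893 stayed on their side of the threshold, 10 (Mycn and Mlxip) lost their call, 19 gained one and 0 reversed; 63 sign changes were of genes called in neither fit. No sample could be tested for standing apart, with 2 lungs per genotype. Depth does not limit the members, whose means are at least 588, but the number of lungs does, and p-values measure the spread between these lungs alone.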
